A study of Homo sapiens with 8 samples.

Results

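The genes described here encode the sensors of viral double-stranded RNA, their adaptor proteins and an enzyme that edits such RNA, in the human metastatic melanoma cell line A375. They are DDX58, IFIH1, DHX58, MAVS, TLR3, TICAM1 and ADAR, 7 of the 60710 genes in the count table, chosen by symbol with the response of these cells to TNF already known. Cells were left untreated (NT) or received 50 ng/mL human recombinant TNF for 24 h, and 4 independent experiments gave 4 libraries of polyadenylated RNA per group. A375 is 1 line without added alleles, so the values describe tumor cells in culture with no immune cells beside them. All 7 genes passed the filter on low counts, as did 16186 genes in all.

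Cells detect viral RNA by a cytoplasmic and an endosomal route. In the cytoplasm, RIG-I (the product of DDX58, also named RIGI) and MDA5 (IFIH1) bind double-stranded RNA and act through the mitochondrial adaptor MAVS, while LGP2 (DHX58) binds RNA without a signaling domain of its own and tunes the other receptors. In endosomes, TLR3 acts through the adaptor TRIF (TICAM1). Both adaptors lead to the kinases TBK1 and IKBKE, to IRF3, IRF7 and NF-kB, and to interferon genes, and ADAR edits adenosine to inosine in double-stranded RNA, which keeps the cell's own RNA from being read as foreign. TNF is an activator of NF-kB, and several of these sensors are known as interferon-stimulated genes.

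The start regions of these genes are shown because the results below concern RNA levels, and 2 kinds of motif were searched in them. RefSeq start windows (250 bases before to 50 after the start, GRCh38.p14) were found for 6 of the 7 genes, all but DHX58. The motifs were the core of the interferon-stimulated response element, GAAA and GAAA with any 2 bases between them, and the NF-kB consensus, both searched on either strand after the sequences had been seen. The first was present in 3.57% and the second in 5.91% of 35116 windows of 300 bases, and both in 0.168%. The 250 bases before the start are printed 5′ to 3′ on the strand of the gene, with matches in capitals, for the 3 genes whose RNA level differed most between the groups and whose window was found. RIGI lies at chr9:32526197-32526446, IFIH1 at chr2:162318685-162318934 and TICAM1 at chr19:4831713-4831962, all on the minus strand.
RIGI: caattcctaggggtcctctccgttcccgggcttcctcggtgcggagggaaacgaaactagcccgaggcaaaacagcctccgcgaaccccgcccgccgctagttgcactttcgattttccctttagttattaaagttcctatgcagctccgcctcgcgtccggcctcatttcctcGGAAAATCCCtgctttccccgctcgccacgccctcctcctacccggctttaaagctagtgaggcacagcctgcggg
IFIH1: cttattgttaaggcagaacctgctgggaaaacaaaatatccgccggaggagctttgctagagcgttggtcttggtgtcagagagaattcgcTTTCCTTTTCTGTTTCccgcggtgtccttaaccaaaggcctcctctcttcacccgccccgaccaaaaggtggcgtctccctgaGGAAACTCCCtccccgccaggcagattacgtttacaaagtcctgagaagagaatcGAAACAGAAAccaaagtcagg
TICAM1: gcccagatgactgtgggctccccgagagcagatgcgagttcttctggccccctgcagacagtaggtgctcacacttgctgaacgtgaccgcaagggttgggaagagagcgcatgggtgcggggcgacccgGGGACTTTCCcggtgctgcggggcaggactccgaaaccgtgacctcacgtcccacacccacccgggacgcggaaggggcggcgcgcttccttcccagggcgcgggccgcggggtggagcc
In RIGI the capitals mark an NF-kB match at positions -76 to -67 from the start. In IFIH1 the first run in capitals holds a pair of overlapping matches to the interferon-stimulated core (-159 to -150 and -153 to -144), the second an NF-kB match at -76 to -67 and the last another interferon-stimulated core at -21 to -12. TICAM1 had an NF-kB match at -120 to -111. TLR3 had 1 interferon-stimulated core across its start, at -4 to 6.
TLR3: agctttacTTTCACTTTCgagagtgc
That site lies on chromosome 4 at 186069152 to 186069161 in the gene's direction (plus strand), inside the longer TLR3 gene model of GENCODE. The windows of MAVS and ADAR held neither motif. These matches describe letters only, since binding of factors was not measured.

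Total counts per library ran from 30989787 to 44373296. The melanocyte lineage factor SOX10 was present in NT at 1025 ± 53.9 CPM (read counts scaled to library size; SD, n = 4) and in TNF at 1177 ± 86.2 CPM, and MITF at 21.0 ± 1.24 and 22.0 ± 2.44 CPM. The pigment genes PMEL and MLANA stayed under 1 CPM in every library and TYR had 0 counts in every NT library. S100B fell from 17.3 ± 3.93 to 3.05 ± 0.421 CPM. Of the 8 markers in this list 5 had enough counts to be tested, and S100B was the 1 to pass. The 4 leukocyte markers summed to 0.0952 to 0.301 CPM in NT and 0.139 to 0.258 CPM in TNF. PTPRC had 0 to 2 counts per library. The 3 endothelial markers summed to 0.825 to 1.795 CPM in NT and 2.12 to 3.43 CPM in TNF. Of these PECAM1 rose from 0.312 to 2.30 CPM in the mean, while VWF was at 0.681 and 0.226 CPM and did not pass, and CDH5 was at 0.166 and 0.113 CPM and was not tested. The 3 epithelial markers summed to 0.137 to 0.385 and 1.26 to 2.26 CPM, with KRT5 higher. EPCAM had 0 counts in every TNF library, and the part of these markers in the results was not tested. In bulk RNA, fewer cells with a transcript and less of it per cell cannot be told apart. NT replicates 2 and 4 and TNF replicate 4 held 0.0117% to 0.0123% of counts from ribosomal RNA, 7SK and 7SL genes, against 0.00228% to 0.00409% in the other libraries. These 3 libraries are called richer in ribosomal RNA below, although the kinds of RNA in this share were not separated. The part of the combined share in the results below was not tested.

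Of the 7 genes, 5 were higher with TNF by edgeR (quasi-likelihood, adjusted p below 0.05) and 0 were lower. Of all genes tested, 24.4% were called in either direction and 14.5% higher and 9.90% lower. For 6 of the 7, every TNF library lay above every NT library in CPM, which held for 15.6% of all genes tested. As the genes were listed with this contrast known, these counts and the fold changes are a description and nothing is read from them. The median log2 fold change was 0.76 over the 7 genes and -0.0035 over all genes tested.

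**Figure D1:**
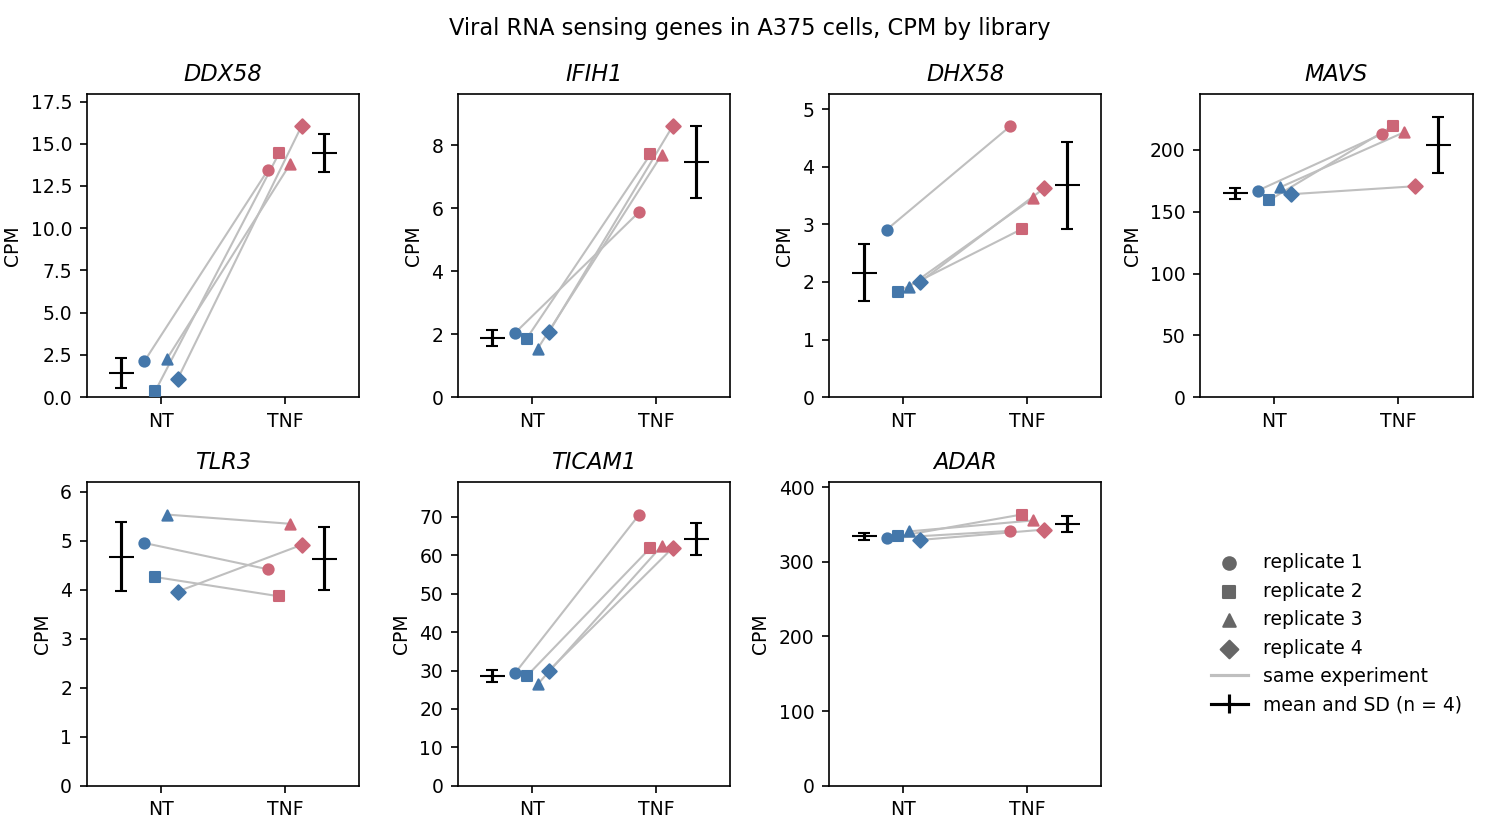
CPM (y axis from 0, scaled by the trimmed mean of M values) of each gene in the 4 NT and 4 TNF libraries, with lines joining libraries of the same experiment and bars for mean and SD (n = 4). DDX58, IFIH1 and TICAM1 separate widely, DHX58 and MAVS narrowly, and TLR3 overlaps between the groups.

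Among the receptors, DDX58 differed most. The gene (ENSG00000107201.11) lies on chromosome 9 at 32455302 to 32526208 on the minus strand and its canonical transcript has 18 exons. DDX58 had 2.12, 0.382, 2.23 and 1.08 CPM in NT replicates 1 to 4 and 13.5, 14.5, 13.8 and 16.05 CPM in TNF replicates 1 to 4. All TNF libraries were far above all NT libraries, and the NT values themselves were widely spread, at 1.45 ± 0.882 CPM (SD, n = 4) against 14.4 ± 1.14 CPM in TNF. The log2 fold change was 3.30 (SE 0.38), a 9.86-fold difference, which placed DDX58 at rank 121 of the 2345 genes called higher. Within experiments the fold was 6.23, 33.1, 6.06 and 14.2 in replicates 1 to 4, so its size depended on which NT library was used. These pairs rest on the dates in the column names of the count table. Without the 3 libraries richer in ribosomal RNA the log2 fold change was 2.68.

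The spread of DDX58 in NT libraries moved with the counts of another gene. AL353671.1 (ENSG00000288684.1) is annotated as a protein-coding gene on the same strand of chromosome 9, at 32455323 to 32552603, and runs through the DDX58 locus. It shares 4471 of its 4941 exon bases with DDX58, or 90.5%. Reads from shared bases were divided between the genes by the authors' counting program, and DDX58 counts were not whole numbers in any of the 8 libraries. AL353671.1 had 1.00, 2.90, 1.38 and 2.41 CPM in NT replicates 1 to 4, high where DDX58 was low. In TNF it had 1.38, 1.93, 2.29 and 2.65 CPM, and its log2 fold change of 0.11 (SE 0.34) did not pass the test (adjusted p = 0.862, edgeR). DDX58 received 67.9%, 11.6%, 61.8% and 30.5% of the counts of the pair in NT and 85.8% to 90.8% in TNF.

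Added together, the counts of both genes were even within each group. The sum was 3.12, 3.28, 3.62 and 3.49 CPM in NT replicates 1 to 4 and 14.8, 16.4, 16.1 and 18.7 CPM in TNF. Its SD in NT was 6.56% of the mean, against 60.7% for DDX58 alone. The sum went from 3.38 ± 0.222 to 16.5 ± 1.61 CPM (SD, n = 4), with a log2 fold change of 2.29 (SE 0.11), or 4.89-fold, less than the 9.86-fold of DDX58 alone. It would stand at rank 271 among the genes called higher. The log2 differences within experiments were 2.23, 2.30, 2.14 and 2.40 for the sum and 2.64, 5.05, 2.60 and 3.83 for DDX58 alone. Over 18 other settings of the analysis the log2 fold change of the sum stayed between 2.21 and 2.33, and that of DDX58 alone between 2.68 and 3.57. The direction is the same on both counts, while the size of the DDX58 difference depends on how shared reads are assigned. None of the other 6 genes shared exon bases with another gene of the same strand in GENCODE release 44. Counts were nevertheless not whole in 8 libraries for MAVS, 7 for ADAR and 6 for TLR3, while those of IFIH1, DHX58 and TICAM1 were whole in all.

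**Figure D2:**
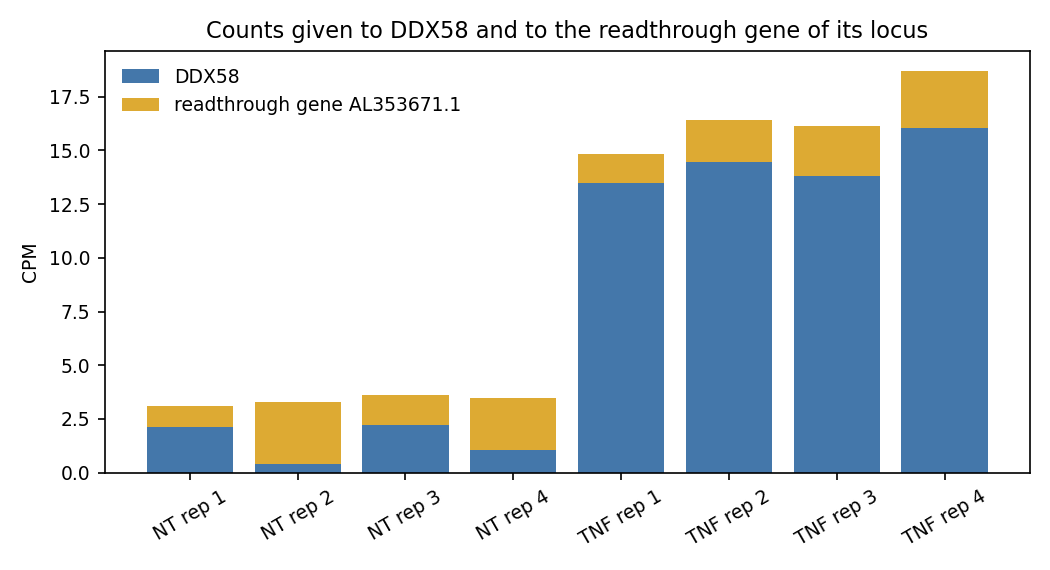
CPM given to DDX58 (lower segment) and to the overlapping readthrough gene AL353671.1 (upper segment) in each library, with bars from 0. The height of the whole bar is 3.12 to 3.62 CPM in NT and 14.8 to 18.7 CPM in TNF, while the division between the segments varies in NT.

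IFIH1, the gene of MDA5 (ENSG00000115267.9, chromosome 2, 162267074 to 162318684, minus strand), had 2.05, 1.86, 1.54 and 2.06 CPM in NT replicates 1 to 4 and 5.88, 7.71, 7.69 and 8.61 CPM in TNF. The groups were far apart, and TNF replicate 1 was the lowest of its group. The log2 fold change was 1.99 (SE 0.17), or 3.96-fold, and ranged from 1.90 to 2.08 over the other settings. Set beside the summed DDX58 locus at 2.29 (SE 0.11), the RNA of both signaling receptors was several-fold higher.

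DHX58, the gene of LGP2 (ENSG00000108771.13, chromosome 17, 42101404 to 42112714, minus strand), differed less. It had 2.91, 1.83, 1.92 and 1.999 CPM in NT replicates 1 to 4 and 4.71, 2.92, 3.45 and 3.62 CPM in TNF. The groups met at the edge, with TNF replicate 2 level with NT replicate 1. Replicate 1 was the highest in both groups, and within experiments the fold was 1.61, 1.58, 1.78 and 1.79. The log2 fold change was 0.76 (SE 0.21). DHX58 fell short of the threshold when NT replicate 2, 3 or 4 or TNF replicate 1 was left out (log2 fold change 0.61 to 0.71), without both libraries of the fourth experiment (0.72) and when the 3 libraries richer in ribosomal RNA were dropped (0.60).

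The adaptor of the cytoplasmic route, MAVS (ENSG00000088888.18, chromosome 20, 3846799 to 3876123, plus strand), was abundant and differed little. It had 167, 159, 169.8 and 164 CPM in NT replicates 1 to 4 and 213, 219, 214 and 171 CPM in TNF. TNF replicate 4 stood near the NT libraries, apart from the other 3 TNF libraries. The log2 fold change was 0.31 (SE 0.08), and within experiments it was 0.35, 0.46, 0.34 and 0.056. MAVS fell short of the threshold with upper-quartile factors (0.25), with library totals (0.23) and when NT replicate 2 or 4 or TNF replicate 1, 2 or 3 was left out (0.27 to 0.30). As TPM, a level per exon length scaled to the same total in each library, MAVS was 47.9 in TNF replicate 4 and 51.2 to 55.8 in NT, so the groups overlapped on that scale, as did those of DHX58 and ADAR.

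On the endosomal route, the groups overlapped for the receptor and stood apart for its adaptor. TLR3 (ENSG00000164342.13, chromosome 4, 186068911 to 186088073, plus strand) had 4.96, 4.26, 5.54 and 3.97 CPM in NT replicates 1 to 4 and 4.42, 3.87, 5.35 and 4.92 CPM in TNF. The groups overlapped fully, with a log2 fold change of -0.012 (SE 0.16) whose sign changed when single libraries were left out. TICAM1, the gene of TRIF (ENSG00000127666.10, chromosome 19, 4815932 to 4831712, minus strand), had 29.4, 28.5, 26.4 and 29.96 CPM in NT and 70.6, 62.0, 62.4 and 62.0 CPM in TNF. Values were tight within each group and TNF replicate 1 stood above the other 3. Its log2 fold change was 1.17 (SE 0.08), or 2.25-fold, and ranged from 1.09 to 1.21 over the other settings.

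ADAR (ENSG00000160710.18, chromosome 1, 154581695 to 154628013, minus strand) was the most abundant of the 7 genes. It had 332, 334, 341 and 329 CPM in NT replicates 1 to 4 and 342, 363, 355 and 343 CPM in TNF. The lowest TNF library was level with the highest NT library. The log2 fold change of 0.071 (SE 0.06) did not pass the test and changed sign with library totals (-0.012). Its counts are of the whole gene, so the interferon-inducible and the constitutive forms of the enzyme were not separated.

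Per length of annotated exons, the adaptors and ADAR were far above the receptors in both groups. In NT, ADAR was at 103 ± 2.69 TPM (SD, n = 4), MAVS at 53.0 ± 2.04, TICAM1 at 40.3 ± 2.97, TLR3 at 2.36 ± 0.358, DHX58 at 2.15 ± 0.564, IFIH1 at 1.36 ± 0.201 and DDX58 at 0.530 ± 0.327 TPM, or 1.23 ± 0.0447 TPM with AL353671.1 added. TLR3 and DHX58 did not differ beyond their spread, nor did IFIH1 and the summed DDX58 locus, by this length. In TNF, ADAR was at 102 ± 6.39, TICAM1 at 85.0 ± 8.65, MAVS at 61.7 ± 9.25, IFIH1 at 5.05 ± 0.630, DDX58 at 4.94 ± 0.151 (5.64 ± 0.311 with AL353671.1 added), DHX58 at 3.42 ± 0.782 and TLR3 at 2.20 ± 0.344 TPM. TICAM1 thus stood above MAVS in every TNF library and below it in every NT library. TLR3 was the highest of the 4 receptors in NT by its mean and the lowest in TNF. IFIH1 and DDX58 did not differ beyond their spread in TNF by this length. These close orders depended on the length used. With the longest or the canonical transcript as length, DHX58 stood above TLR3 in NT by its mean. DDX58 then stood above IFIH1 in every TNF library, at 7.37 ± 0.201 against 5.09 ± 0.631 TPM with the longest transcript. The summed DDX58 locus likewise stood above IFIH1 in every NT library, at 1.84 ± 0.0733 against 1.37 ± 0.196 TPM.

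**Figure D3:**
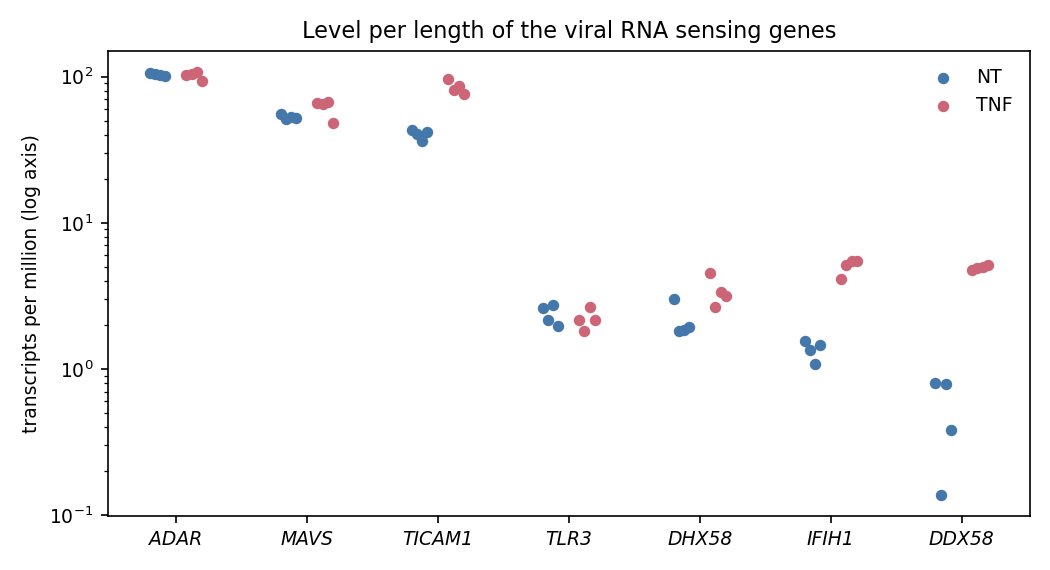
Level per length in TPM (log axis) of each gene in every NT and TNF library, ordered by the NT mean. ADAR, MAVS and TICAM1 lie above 36 TPM in all libraries, and the 4 receptors lie below 6 TPM.

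By Pearson correlation of log2 CPM over the 8 libraries, the genes most like DDX58 were CLDN12 (r = 0.993), MCTP1 (0.985) and TRIP10 (0.984), those most like IFIH1 were KCNMA1 (0.994), WWC1 (0.993) and IL4R (0.993), and those most like DHX58 were TMEM69 (0.985), ASL (0.981) and MUC1 (0.98). The 8 points share the split between NT and TNF, and 0.867%, 3.93% and 0.279% of 13611 genes reached an r of 0.95 with DDX58, IFIH1 and DHX58. For DDX58 the pattern includes the uneven division of reads with AL353671.1.

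The other genes of the pathway were taken in 9 lists of 127 genes, of which 107 were tested. Of these, 34 rose and 5 fell, or 36.4%, against 24.4% of all genes tested, with a median log2 fold change of 0.15. As the lists too were chosen with earlier results of these data known, these shares are a description and nothing is read from them. With the experiment date as a block, 49 pathway genes rose and 15 fell, and of all 16186 genes tested 3451 rose and 2946 fell. With upper-quartile factors 32 pathway genes rose and 12 fell, and of all genes tested 2045 rose and 2196 fell. The share of 24.4% holds for the main fit only. By list, the share called was 21.4% for receptor cofactors, 14.3% for the endosomal machinery and 16.7% for RNA editing and decay. The share was 52.9% for signaling from the adaptors to IRF3 and NF-kB, 43.8% for negative regulators and 42.9% for other binders of double-stranded RNA. For interferon receptors and ISGF3 it was 44.4%, and for genes read as a sign of interferon action 38.9%.

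Around the cytoplasmic receptors, 3 of 14 cofactors rose and 0 fell. TRIM25, a ubiquitin ligase that modifies RIG-I, went from 148 ± 10.3 to 179.6 ± 18.4 CPM (SD, n = 4), with a log2 fold change of 0.28 (adjusted p = 0.0399, edgeR). This call was lost when any NT library or TNF replicate 2 or 4 was left out (log2 fold change 0.23 to 0.30), with upper-quartile factors (0.22), with library totals (0.19), with no filter on low counts (0.27), without the fourth experiment (0.26) and without the libraries richer in ribosomal RNA (0.30). The helicase gene DDX60 rose from 3.26 ± 0.455 to 6.51 ± 0.871 CPM (log2 fold change 1.00, adjusted p = 0.000878, edgeR), and OASL rose at a low level, under 1 CPM in the mean of both groups. The helicase DHX9 was at 535 ± 55.7 and 478 ± 70.6 CPM and did not pass.

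In the list for signaling from MAVS and TRIF to IRF3 and NF-kB, 8 of 17 genes rose and 1 fell. IKBKE, the inducible kinase that phosphorylates IRF3, had 13.9, 11.8, 12.5 and 11.2 CPM in NT replicates 1 to 4 and 96.2, 88.3, 73.8 and 107 CPM in TNF. Every TNF library was above 73 CPM, and the log2 fold change was 2.88 (SE 0.12, adjusted p = 1.79e-07, edgeR). TBK1, its constitutive relative, was at 38.8 ± 3.58 and 44.4 ± 3.60 CPM and did not pass (log2 fold change 0.19), although it passed with the experiment date as a block (0.19). The transcription factor IRF7 rose from 6.16 ± 0.955 to 14.4 ± 1.43 CPM (log2 fold change 1.22, adjusted p = 8.34e-05, edgeR). IRF3 was at 52.1 ± 0.443 and 58.7 ± 3.71 CPM and did not pass (0.17), but passed with the block (0.17). TRAF3, the ubiquitin ligase that links MAVS and TRIF to these kinases, rose from 39.6 ± 1.56 to 63.8 ± 2.44 CPM (log2 fold change 0.69, adjusted p = 3.24e-05, edgeR). TANK, STING1, FADD, TRAF2 and TRADD also rose, by 0.43 to 0.61 on the log2 scale. STING1 was counted in this list although its product is itself an adaptor, of DNA sensing. TOMM70, the mitochondrial import receptor that binds MAVS, fell by 0.34 on the log2 scale (adjusted p = 0.00289, edgeR).

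Among the negative regulators, 6 of 16 genes rose and 1 fell. TNFAIP3, which encodes the ubiquitin-editing enzyme A20 and is an NF-kB target, had 5.98, 3.96, 5.19 and 4.76 CPM in NT replicates 1 to 4 and 47.4, 59.4, 49.0 and 80.7 CPM in TNF. Its log2 fold change was 3.56 (SE 0.20, adjusted p = 9.29e-07, edgeR). CYLD, a deubiquitinase, rose from 21.3 ± 1.91 to 49.0 ± 7.56 CPM (log2 fold change 1.202, adjusted p = 3.66e-05, edgeR). RNF125, a ubiquitin ligase that marks RIG-I, MDA5 and MAVS for degradation, fell from 21.5 ± 1.95 to 7.47 ± 2.35 CPM (log2 fold change -1.52, adjusted p = 0.000405, edgeR). Inhibitors thus moved both ways, and ATG12, ITCH, NLRC5 and TAX1BP1 rose by 0.27 to 0.67 on the log2 scale.

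The endosomal machinery showed 1 rise among 7 genes tested, of 11 in the list. MYD88, the adaptor of the other endosomal receptors, went from 36.7 ± 4.30 to 46.3 ± 4.87 CPM (log2 fold change 0.33, adjusted p = 0.0362, edgeR). That call was lost with library totals (0.25) and when NT replicate 1, 2 or 3 or TNF replicate 2 or 4 was left out (0.26 to 0.34). TLR7, TLR8 and TLR9, which bind single-stranded RNA or DNA, were at a mean of under 0.2 CPM in both groups and were not tested.

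Among other binders of double-stranded RNA, 4 of 14 tested genes rose and 2 fell. IFIT3 rose from 11.8 ± 1.88 to 23.3 ± 0.889 CPM (log2 fold change 0.98, adjusted p = 0.000159, edgeR), whereas IFIT1, of the same family of RNA-binding proteins, fell from 3.20 ± 0.772 to 1.44 ± 0.545 CPM (log2 fold change -1.14, adjusted p = 0.0146, edgeR). IFIT1 had 4.04, 2.95, 3.56 and 2.25 CPM in NT replicates 1 to 4 and 1.61, 1.197, 2.11 and 0.841 CPM in TNF. OAS2 rose by 0.70 and OAS3 by 0.62 on the log2 scale. EIF2AK2, the gene of the kinase PKR, was at 85.4 ± 5.04 and 80.5 ± 13.1 CPM and did not pass (log2 fold change -0.084).

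Of 12 tested genes of RNA editing and decay, 1 rose and 1 fell. ADARB1, the other catalytically active adenosine deaminase of this family, fell from 22.1 ± 3.89 to 12.5 ± 0.792 CPM (log2 fold change -0.83, adjusted p = 0.000695, edgeR). It had 20.2, 18.7, 21.8 and 27.6 CPM in NT replicates 1 to 4 and 13.6, 12.4, 11.95 and 11.9 CPM in TNF, and the groups did not overlap. SAMHD1, a nucleotide hydrolase, went from 33.9 ± 7.84 to 50.4 ± 11.3 CPM (log2 fold change 0.57, adjusted p = 0.0445, edgeR). The SAMHD1 call was lost with library totals (0.48), with no filter on low counts (0.56) and when NT replicate 1, 2 or 3 or TNF replicate 2 or 4 was left out (0.43 to 0.56).

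Of the 10 interferon genes in the list, 0 had enough counts to be tested. IFNB1, the interferon that both adaptors induce, had 0 counts in all 8 libraries, as did IFNA2, IFNK, IFNL1, IFNL2 and IFNL3. A count of 0 allows up to 3 counts, or 0.0641 to 0.0971 CPM by library, a limit for counting error only. IFNE, an interferon of epithelia, had 2, 1, 1 and 2 counts in NT replicates 1 to 4 and 8, 5, 9 and 8 counts in TNF. IFNA1, IFNA5 and IFNW1 had 0 to 3 counts per library. The RNA of these 10 genes was thus at or near the limit of this depth at 24 h. Interferon genes outside the list were not examined, and earlier times are not analysed here.

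Of the 9 genes of the interferon receptors and of ISGF3, the factor complex they activate, 4 rose and 0 fell. IFNLR1 rose from 3.30 ± 0.501 to 6.22 ± 0.932 CPM (log2 fold change 0.91, adjusted p = 0.00225, edgeR) and IFNAR2 from 8.99 ± 1.23 to 16.6 ± 1.46 CPM (0.88, adjusted p = 0.00039, edgeR). IFNAR1 rose by 0.43 on the log2 scale. STAT2 was at 20.7 ± 4.49 and 20.5 ± 7.07 CPM and did not pass. IRF9, a part of ISGF3, rose from 2.54 ± 0.654 to 4.68 ± 0.663 CPM (0.87, adjusted p = 0.0116, edgeR). IRF9 shares 1544 exon bases with another gene, AL136295.5 (27.7% of the exon bases of the latter). AL136295.5 held 50.1% of the summed counts of the pair in NT and 32.7% in TNF. The pair together was at 5.24 ± 0.522 and 6.86 ± 0.536 CPM, a 1.31-fold difference against 1.83-fold for IRF9 alone. As most exon bases of AL136295.5 lie outside IRF9, the sum can also hold reads that do not come from IRF9. How much of the difference between these folds comes from the division of reads was not tested.

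Among 22 genes often read as a sign of interferon action, 7 of the 18 tested rose and 0 fell. IRF1, which TNF can induce through NF-kB, rose from 13.4 ± 1.64 to 53.7 ± 10.3 CPM (log2 fold change 2.002, adjusted p = 5.46e-06, edgeR). IFI44 rose from 7.98 ± 1.15 to 26.2 ± 4.70 CPM (1.71, adjusted p = 1.66e-05, edgeR) and ISG15, a ubiquitin-like modifier, from 3.42 ± 0.647 to 8.57 ± 1.06 CPM (1.32, adjusted p = 0.000194, edgeR). SAMD9L, MX1, PARP14 and SAMD9 rose by 0.58 to 0.97 on the log2 scale. IFITM3 (176 ± 12.5 and 171 ± 10.1 CPM) and MX2 (91.9 ± 12.4 and 88.0 ± 8.15 CPM) did not pass, and RSAD2 was under 0.2 CPM in the mean of both groups and was not tested. Within this list, IRF1 and IFI44 had fold changes near that of IFIH1, while most of the genes did not pass the test.

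**Figure D4:**
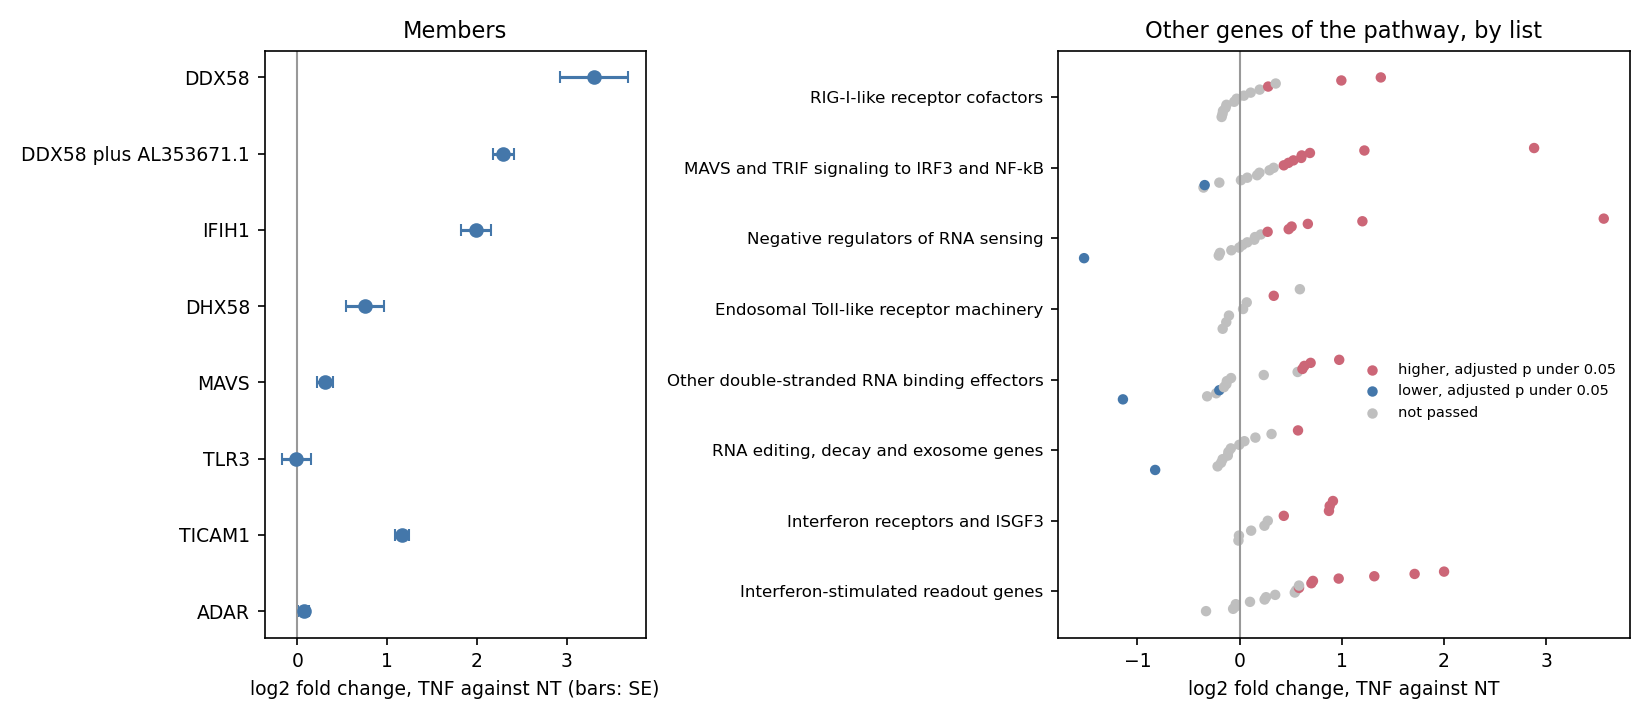
Log2 fold change, TNF against NT, of the 7 genes and of DDX58 summed with AL353671.1 (left, bars are SE, n = 4 libraries per group), and of the 107 other pathway genes tested, by list (right, points colored by the test). IKBKE at 2.88 and TNFAIP3 at 3.56 lie farthest right and RNF125 at -1.52 farthest left among the other genes.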

How the data were processed

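RNA of A375 cells was sequenced in 8 libraries, 4 per group. Per the labels, libraries were made with a stranded kit for polyadenylated RNA. The authors aligned reads with bowtie2 (its version is not given in the sources used here) to the GRCh38 transcriptome and estimated counts with RSEM 1.2.25. The deposited values are these expected counts per gene, not normalized, in 1 table of the series. The single files of the 4 NT samples hold the counts of an NT library of another date than their title, so the table, whose column names match the titles, was used. Values within experiments and the block by date rest on these column names being right.

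Counts were rounded to whole numbers and filtered by edgeR (minimum count 10, total 15), which left 16186 genes. TMM factors and a robust quasi-likelihood fit of edgeR 4.0.16 with treatment alone were used (threshold 0.05 after Benjamini-Hochberg adjustment over all genes tested) in R 4.3.3. SE is the fold change coefficient over the root of F. TPM was rebuilt from counts and the union of exons in GENCODE release 44, which is not the release the authors used. Ranks are by log2 fold change among genes called higher. The fit was tested on simulated data.

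Replicates are experiment dates in the titles. Deviations of NT and TNF libraries of the same date from their group means correlated at r = 0.351, 0.169, 0.238 and 0.46 over 16186 genes. Other pairings of NT and TNF libraries were not compared, so these values cannot show that the pairing is right. The replicate numbers pair the libraries by date, and 1 alternative has the date as a block. The alternatives were other scaling factors, filters, DESeq2 1.42.0, limma voom 3.58.1, libraries left out and a threshold of 0.01. Members and lists were chosen with earlier results of these data known. No p-value is given for the 7 genes in the contrast that chose them. Other genes named are 11 fixed ones (some genes of the rule and lists are not reported here), up to 3 per list with the largest change past the threshold among genes averaging 0 or more in log2 CPM, and the 3 most correlated with DDX58, IFIH1 and DHX58. Further genes behind small counts or shown as background were named after their values were seen. The sums of DDX58 and IRF9 with the genes sharing their exons and the promoter motifs were also chosen after seeing the data.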

Additional observations from a re-analysis of the deposited data

Results flagged for a closer look

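In 5 of 78 groups of 4 libraries, 1 library stood farther from the others than Dixon's 95% limit, where chance gives about 3.9, and 2 of the 5 were among the 14 groups of the RNA sensing genes. Log2 CPM of MAVS was 7.42 in TNF replicate 4, below the 7.73 to 7.78 of the other TNF libraries. TICAM1 was at 6.14 in TNF replicate 1, above the 5.95 to 5.97 of the others. TBK1 was at 5.64 in TNF replicate 4 (others 5.40 to 5.43). TMEM69 was at 4.63 in NT replicate 1 (others 4.29 to 4.31) and ASL at 4.77 in the same library (others 4.61 to 4.63). TNF replicate 4 is among the 3 libraries with more counts from ribosomal RNA, 7SK and 7SL genes. The part of that share in these values was not tested.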

How the results depend on the processing

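Over 40 named genes and sums, 702 of 759 log2 fold changes under other settings kept their direction and side of the threshold, 46 kept only the direction, 3 passed the threshold newly and 8 changed sign. The sign changes were TLR3 without NT replicate 1 (0.016), NT replicate 3 (0.0758), TNF replicate 1 (0.0053) or TNF replicate 2 (0.0622), within a range of -0.0898 to 0.0758 over single libraries left out, ADAR with library totals (-0.0117) and EIF2AK2 without TNF replicate 4 (0.0203, range -0.156 to 0.0203), without the fourth experiment (0.0237) or the 3 libraries richer in ribosomal RNA (0.0719). None of these values passed the test, and the cause was not tested. Leaving out single libraries gave 3 to 5 of the 7 genes called, with 3 without NT replicate 2, NT replicate 4 or TNF replicate 1, where DHX58 and MAVS fell short. A threshold of 0.01 also left 3, and 2320 of all genes. With the replicate block by experiment date, 6397 of all genes (3451 higher and 2946 lower, against 2345 and 1603 without it) and 64 other pathway genes were called. Of the named genes, TBK1, IRF3 and ASL passed with the block (ASL at 0.22), and it changed no other call of a named gene. Upper-quartile factors gave 2045 higher and 2196 lower of all genes, and library totals 1925 and 2514. Without NT replicate 2, 2990 of all genes were called, the fewest of these leave-outs, and 4417 without TNF replicate 4, the most. For other pathway genes the range was 31 to 39.

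Levels per length moved by more than the replicate SD with other lengths. With the longest transcript, NT and TNF means were 38.2 and 44.4 TPM for MAVS, 28.9 and 60.8 for TICAM1, 124.6 and 122.5 for ADAR, and DDX58 in TNF was at 7.37. With the canonical transcript they were 29.5 and 34.2 for MAVS, 22.3 and 46.9 for TICAM1, 1.10 and 4.07 for IFIH1, 1.63 and 1.51 for TLR3, ADAR was at 105.9 in NT and DDX58 at 6.09 in TNF. With 4 libraries per group, the calls of small differences depended on the settings. DHX58, at a mean of 2.16 CPM in NT and 3.67 CPM in TNF, kept its call in 12 of 18 other settings. MAVS, at 165 and 204 CPM, kept its call in 11. The parts of depth, level and spread between libraries in this were not tested. Gene counts from polyadenylated RNA give no measure of protein or of RNA editing.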
